A study of Mus musculus with 12 samples.

Results

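The genes described here are targets of the transcription factor p53, together with Trp53 itself, which encodes it, and genes of the DNA damage response. They were measured in endothelial cells of the neonatal mouse lung. 34 genes were listed by name for their known roles, with earlier results of these data known. All 34 are listed in each of the 12 tables. Pidd1, which encodes a death domain protein that assembles a caspase-activating complex, was listed at 0 in all 12 and was dropped, which left 33 of the 24394 genes that all tables share. The cells were sorted by FACS from C57BL/6J mice aged P5 (postnatal day 5), and each genotype had 4 libraries. L12-ECKO mice (titled LATS1/2-ECKO) combine VE-cadherin-CreERT2, an endothelial, tamoxifen-regulated Cre, with Lats1f/f and with Lats2 f/f, the floxed genes of the Hippo pathway kinases. L12YT-ECKO mice (titled LATS1/2;YAPTAZ-ECKO) carry floxed Yapf/f and TAZf/f alleles in addition, so that the co-activators YAP and TAZ (genes Yap1 and Wwtr1), which those kinases restrain, are removed as well. The third group, WT, was labelled wild type. The labels name no inducer or timing and no Cre status for WT mice. They also do not say if each library is a mouse of its own, so p-values measure the spread between these libraries.

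p53 is a DNA-binding protein that is held at a low level by the ubiquitin ligase Mdm2, itself encoded by a p53 target gene. DNA damage and other stresses release p53 from Mdm2, largely through changes in the protein rather than in its transcript. p53 then switches on genes that stop the cell cycle, repair DNA or start apoptosis, and it does so through paired copies of a short binding element, the half-site, near its targets. In endothelial cells this pathway is known for arrest and cell death after irradiation.

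To look for that element in the members, promoters were read from RefSeq (GRCm38.p6), in windows running from 250 bases before to 50 bases after each annotated start. 26 of the 34 genes had an entry. The p53 half-site consensus decamer, which reads the same in class of base on both strands, was found in 11 of the 26 (42.308%), against 2582 of all 27025 genes with an entry (9.554%). A gene can have several windows, and these shares cover 36 windows for the 26 genes and 32851 for all. The second motif searched was CATGNNNNNNCATG, a spaced pair of one form of the half-site core, searched on both strands, and it can overlap the half-site matches. It was present in Cdkn1a alone among the 26 (3.846%), against 225 of all genes (0.833%). Stretches before the gene start are printed for the arrest gene Cdkn1a (chr17:29090729-29090975, plus strand), for Mdm2 (chr10:117710759-117711008, minus strand), for the cyclin gene Ccng1 (chr11:40755312-40755536, minus strand) and for the apoptosis gene Bax (chr7:45466899-45467148, minus strand). They were chosen among widely used readouts of p53, and only windows with a half-site match were printed. Of other genes described below, Aen had a match, and Phlda3, Bbc3, Plk2 and Gdf15 had none. Zmat3 and Tnfrsf10b had no entry. Capitals mark matches to the half-site decamer.
Cdkn1a: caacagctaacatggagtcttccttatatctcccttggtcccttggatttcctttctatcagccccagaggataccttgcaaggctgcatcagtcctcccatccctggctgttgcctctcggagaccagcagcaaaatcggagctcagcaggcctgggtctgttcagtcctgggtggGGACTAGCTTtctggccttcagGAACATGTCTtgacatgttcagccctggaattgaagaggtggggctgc
Mdm2: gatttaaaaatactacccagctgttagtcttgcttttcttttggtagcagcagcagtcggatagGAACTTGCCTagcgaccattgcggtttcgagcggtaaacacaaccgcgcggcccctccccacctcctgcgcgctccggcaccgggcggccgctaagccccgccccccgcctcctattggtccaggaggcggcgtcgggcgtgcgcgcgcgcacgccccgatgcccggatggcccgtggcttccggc
Ccng1: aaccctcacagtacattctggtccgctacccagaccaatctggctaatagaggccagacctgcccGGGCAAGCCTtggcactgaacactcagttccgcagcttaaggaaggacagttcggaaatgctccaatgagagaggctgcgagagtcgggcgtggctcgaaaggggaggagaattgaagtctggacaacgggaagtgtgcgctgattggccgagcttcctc
Bax: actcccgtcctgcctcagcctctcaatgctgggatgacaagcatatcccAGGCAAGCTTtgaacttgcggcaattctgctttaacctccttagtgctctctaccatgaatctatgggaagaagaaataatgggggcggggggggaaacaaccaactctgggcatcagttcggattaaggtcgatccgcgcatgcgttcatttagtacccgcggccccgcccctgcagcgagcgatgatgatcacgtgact
Cdkn1a has 2 half-sites in this stretch and the others have 1 each. A match describes the letters of the window and does not show binding by p53.

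Between 9850 and 13078 genes lay above 0 per library, and the depth is unknown. Values are used as the authors had normalized them. Their log2 scale was worked out from the values, and on it a difference of 1 is a doubling. For members with listed zeros a difference is not a fold change. No pair of libraries held identical values, and across genes libraries correlated at 0.658 to 0.844 within groups and at 0.609 to 0.837 between groups. A block of 32 rows is shifted by 1 row in 5 libraries (L12-ECKO 2, 3 and 4 and L12YT-ECKO 3 and 4), and these 5 were treated as a batch. None of the members stands in those rows, although Gtse1 is the next row after them. By Xist and Ddx3y the libraries L12-ECKO 2, 3 and 4, L12YT-ECKO 3 and WT 4 came from females, so in L12-ECKO batch and sex cannot be told apart. Wwtr1 lay between 8.16 and 9.37 in L12YT-ECKO libraries, against 11.56 to 12.01 in WT. Lats1 ranged from 0 to 7.40 in L12-ECKO and from 0 to 7.90 in L12YT-ECKO, against 5.32 to 7.45 in WT, and Lats2 from 9.71 to 10.33 and from 8.63 to 9.57, against 8.42 to 9.34. Reads come from 3-prime ends and the labels do not name the exons lost, so Lats1 and Lats2 do not check the labels. All 10 endothelial markers were above 0 in every library, with sums of 25600 to 26700 ppm (parts of the library's summed linear values) in L12-ECKO, 26900 to 29600 in L12YT-ECKO and 26900 to 27800 in WT. The 9 immune markers summed to 7760 ppm in L12-ECKO 1 and to at most 281 elsewhere, with Cd3e at 0 in L12-ECKO 1. Of 14 hepatocyte markers, 10 to 13 were above 0 in the 5 shifted libraries, against 2 to 6 in the other 7, with Afp at 0 in all 12. Their sums were 90.0 to 573 ppm in L12-ECKO, 38.3 to 201 in L12YT-ECKO and 32.4 to 86.8 in WT. Sums ranged from 80.5 to 493, 186 to 623 and 134 to 724 for 8 epithelial markers, and from 61.9 to 130, 58.8 to 173 and 105 to 201 for 8 mesenchymal markers, in the same order of groups. Sums for 9 erythroid and platelet markers were 1830 to 7950, 3010 to 11000 and 2590 to 15600. In bulk samples such as these, fewer cells of a type and less RNA per cell cannot be told apart.

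In knockout libraries most of the p53 genes lay above their WT mean, in both knockout genotypes, but no single gene passed the test. Bax encodes the pore-forming effector of mitochondrial apoptosis. Its transcript was 2.12-fold more abundant over both knockouts than in WT (log2 difference 1.08 ± 0.24, SE). It was the 1 member of 31 with all 8 knockout libraries above all 4 WT libraries, a separation that 0.592% of all genes tested showed. Zmat3, Aen and Tnfrsf10b lay above the WT mean by larger and more variable amounts in both genotypes, with WT 3 among or above knockout libraries in each. Mdm2 and Gdf15 had their larger differences from WT in L12-ECKO, and Phlda3 in L12YT-ECKO. Within the 7 libraries without shifted rows Gdf15 differed from WT by 1.38 in L12-ECKO and 1.49 in L12YT-ECKO. The only L12-ECKO library among these 7 is L12-ECKO 1, the library with the high immune sum, here and in all such values below. No member was called between the knockout genotypes. Trp53 differed from WT by less than its spread in both.

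31 of the 33 members passed the filter on low values, 1 ppm in at least 4 libraries. Sesn2 and Perp did not, and 12 of the 33 members were at 0 in at least 1 library. At an adjusted p under 0.05 by limma over 11648 genes, 0 of 31 members were called in L12-ECKO against WT, where 0.481% of all genes were called. There were also 0 called in L12YT-ECKO against WT (0.00859% of all genes), 0 for both knockouts together against WT (0.0944%) and 0 for L12YT-ECKO against L12-ECKO (0.0687%). Without adjustment, 10 of 31 members were higher at p under 0.05 in L12-ECKO than in WT, against 6.30% of all genes, and 0 were lower, against 5.91%. The 10 were Mdm2, Cdkn1a, Gadd45a, Gtse1, Zmat3, Bax, Tnfrsf10b, Aen, Eda2r and Gdf15. In L12YT-ECKO 6 of 31 were higher than in WT by the same rule, against 4.12% of all genes, and 0 lower, against 2.10%. The 6 were Zmat3, Bax, Bbc3, Tnfrsf10b, Aen and Phlda3. For both knockouts these counts were 10 higher (6.62% of all genes) and 0 lower (4.20%). The 3 comparisons share the WT libraries, and the last also shares both knockout groups. The count of 10 in L12-ECKO was 5 with sex in the fit and 2 within the 7 libraries without shifted rows, where 1 L12-ECKO library remains, and the count for both knockouts was 6 there. Without L12-ECKO 2 or without L12-ECKO 4 the first count was 6, and without WT 3 the count for L12YT-ECKO was 10.

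Most members shared the direction of the difference. It was above 0 for 25 of 31 members in L12-ECKO, against 49.0% of all genes. It was above 0 for 28 of 31 in L12YT-ECKO (54.3% of all genes) and for 28 of 31 over both knockouts (50.6%). The median difference of the 31 members was 0.75 in L12-ECKO, 0.71 in L12YT-ECKO and 0.70 over both, against medians of -0.02, 0.08 and 0.01 over all genes tested. Groups did not overlap for 1 member higher in L12-ECKO than in WT (Bax, against 2.96% of all genes) and for 4 in L12YT-ECKO (Zmat3, Bax, Bbc3 and Phlda3, against 2.53%). With all 8 knockout libraries set against WT, Bax alone lay wholly above WT, against 0.592% of all genes.

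**Figure D1:**
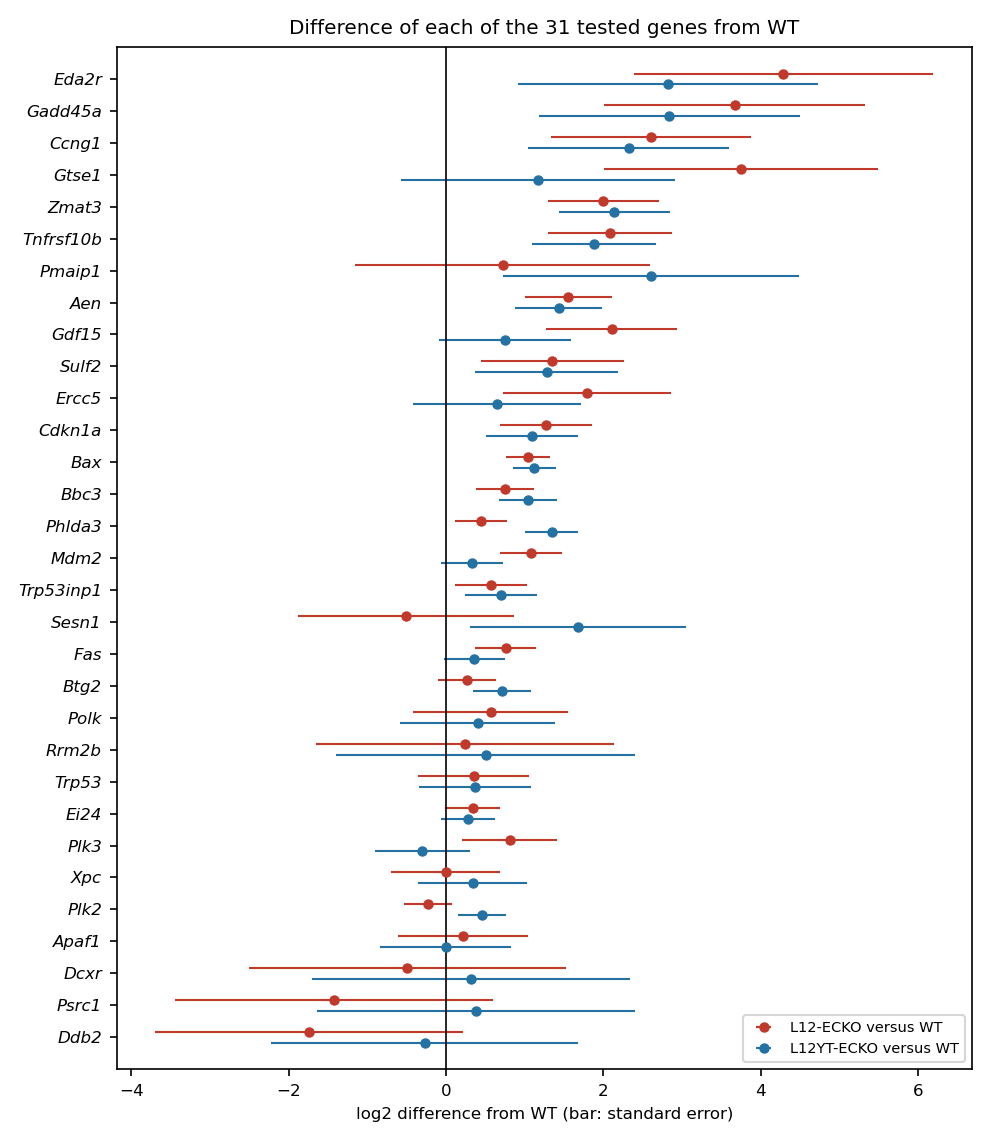
Differences from WT in log2 units for the 31 tested members, ordered by their difference over both knockouts, with L12-ECKO above L12YT-ECKO for each gene and bars of 1 standard error from limma. Most points lie right of the line at 0, and the genes with zeros, such as Gadd45a and Eda2r, have the widest bars.

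Taken library by library, the median member lay above the WT mean by 0.95, 1.20, 0.80 and 1.06 in L12-ECKO 1 to 4. In L12YT-ECKO 1 to 4 it lay above by 0.94, 0.90, 0.79 and 0.99. WT libraries, each set against the mean of the other 3, gave 0.22, 0.21, -0.37 and 0.16. The knockout and WT libraries thus did not overlap in this median, while over all genes tested it lay between 0 and 0.17 in every library. The knockout medians all use the same WT mean and share its error, so they are not independent of each other. How far a median of so few genes varies was not tested. The 3 knockout libraries without shifted rows (L12-ECKO 1, L12YT-ECKO 1 and 2) gave 0.95, 0.94 and 0.90, inside the range of the 5 with them, 0.79 to 1.20. Within the 7 libraries without shifted rows the median member difference from WT was 0.95 in L12-ECKO (L12-ECKO 1 alone) and 0.93 in L12YT-ECKO. L12-ECKO 1, with the high immune sum, had a median inside the range of the other L12-ECKO libraries, and without it the median member difference in L12-ECKO was 0.72. WT 3 was the lowest WT library, and without it the median member difference was 0.64 in L12-ECKO and 0.52 in L12YT-ECKO. The 21 members above 0 in all 12 libraries gave medians of 0.79 to 0.99 in L12-ECKO and 0.52 to 1.15 in L12YT-ECKO, against -0.21 to 0.26 in WT. Beyond these values, the part of the other cell types' markers in the differences was not tested.

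**Figure D2:**
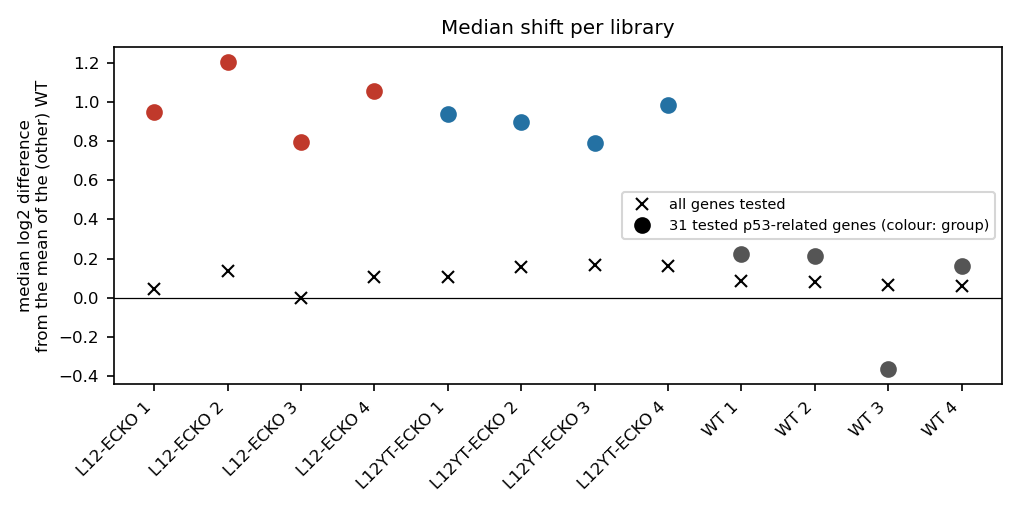
Median log2 difference of the 31 tested members from the WT mean in each library, with the median over all genes tested beside it; each WT library is set against the mean of the other 3. The 8 knockout libraries sit between 0.79 and 1.20, the 4 WT libraries between -0.37 and 0.22, and all-gene medians near 0.

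Trp53 and Mdm2 were the members that set the level of p53. Trp53 was at 8.41, 8.55, 7.83 and 7.21 in L12-ECKO and at 5.66, 9.20, 7.89 and 9.32 in L12YT-ECKO, against 6.68, 8.65, 7.65 and 7.62 in WT. All 3 groups overlapped, and L12YT-ECKO alone held both the lowest and the highest library. Trp53 differed from WT by 0.35 ± 0.71 (SE) in L12-ECKO and by 0.37 ± 0.71 in L12YT-ECKO (limma adjusted p = 0.875 and 0.951), with a 95% interval of -1.13 to 1.84 in L12-ECKO. Mdm2, the ligase that p53 induces and that marks p53 for destruction, was at 10.34, 10.86, 10.37 and 11.89 in L12-ECKO and at 9.85, 9.75, 10.58 and 10.27 in L12YT-ECKO, against 8.89, 9.68, 10.38 and 10.19 in WT. WT 3 reached the 2 lowest L12-ECKO libraries, and the other WT libraries lay under all of them. The Mdm2 difference from WT was 1.08 ± 0.39 in L12-ECKO, a 2.11-fold level (limma adjusted p = 0.262), and 0.33 ± 0.39 in L12YT-ECKO (adjusted p = 0.913). Within the 7 libraries without shifted rows it was 0.55 in L12-ECKO (L12-ECKO 1 alone) and 0.01 in L12YT-ECKO. With sex in the fit it was 0.77 in L12-ECKO. L12YT-ECKO stood below L12-ECKO in Mdm2 by 0.75 ± 0.39, with an interval of -1.58 to 0.07 (adjusted p = 0.826).

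11 members act in cell cycle arrest and growth control, of which 10 were tested. 7 of the 10 lay above WT in L12-ECKO and 9 of the 10 in L12YT-ECKO, with median differences of 1.04 and 1.13. Cdkn1a encodes p21, the inhibitor of cyclin-dependent kinases through which p53 arrests cells. It was at 12.22, 11.90, 11.81 and 10.73 in L12-ECKO and at 13.27, 11.26, 10.84 and 10.59 in L12YT-ECKO, against 9.85, 9.41, 11.22 and 11.10 in WT. The upper WT pair, WT 3 and WT 4, lay among the lower knockout libraries, so the groups overlapped. Cdkn1a differed from WT by 1.27 ± 0.59 in L12-ECKO and 1.09 ± 0.59 in L12YT-ECKO, folds of 2.41 and 2.13 (limma adjusted p = 0.408 and 0.818). Within the 7 libraries without shifted rows these differences were 1.83 in L12-ECKO (L12-ECKO 1 alone) and 1.87 in L12YT-ECKO.

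Zmat3, an RNA-binding zinc finger gene induced by p53, was at 8.07, 7.14, 8.60 and 7.71 in L12-ECKO and at 7.93, 7.86, 7.85 and 8.44 in L12YT-ECKO, against 6.47, 4.14, 7.33 and 5.59 in WT. L12YT-ECKO did not overlap WT, and in L12-ECKO 1 library lay below the highest WT library, WT 3. The Zmat3 difference was 2.00 ± 0.71 in L12-ECKO, 2.14 ± 0.71 in L12YT-ECKO and 2.07 ± 0.61 over both (limma adjusted p = 0.247, 0.674 and 0.242). Within the 7 libraries without shifted rows it was 2.19 in L12-ECKO (L12-ECKO 1 alone) and 2.01 in L12YT-ECKO.

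Ccng1 encodes cyclin G1, a p53 target that acts with Mdm2 in feedback on p53. It was at 6.73, 7.29, 6.64 and 7.74 in L12-ECKO and at 7.75, 6.23, 5.60 and 7.69 in L12YT-ECKO, against 0, 5.95, 6.68 and 5.35 in WT. Its single zero was in WT 1. The Ccng1 difference was 2.61 ± 1.28 in L12-ECKO and 2.33 ± 1.28 in L12YT-ECKO (limma adjusted p = 0.420 and 0.818), and without WT 1 it was 1.11 and 0.83. Gadd45a, whose product binds PCNA and stress kinases after damage, was at 7.40, 3.31, 6.99 and 5.44 in L12-ECKO and at 7.27, 3.31, 5.35 and 3.86 in L12YT-ECKO, against 0, 5.37, 3.08 and 0 in WT. It was above 0 in all 8 knockout libraries and in 2 of 4 WT libraries. Its differences were 3.67 ± 1.66 and 2.84 ± 1.66 (adjusted p = 0.387 and 0.828). Psrc1, a microtubule-binding gene, was at 0, 7.51, 0 and 7.46 in L12-ECKO and at 5.26, 3.69, 5.74 and 7.48 in L12YT-ECKO, against 7.47, 6.34, 0 and 6.85 in WT. Its zeros fell in L12-ECKO and WT, and it differed from WT by -1.42 ± 2.02 and 0.38 ± 2.02 (adjusted p = 0.811 and 0.987).

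The Polo-like kinase gene Plk2 lay below the WT mean in L12-ECKO and above it in L12YT-ECKO, and neither difference was called. It was at 10.42, 10.41, 9.91 and 10.38 in L12-ECKO and at 10.80, 11.04, 10.77 and 11.26 in L12YT-ECKO, against 9.99, 11.12, 10.80 and 10.14 in WT. WT overlapped both knockout groups. L12YT-ECKO lay wholly above L12-ECKO, as it did for 2.75% of all genes tested. Plk2 differed from WT by -0.23 ± 0.30 and 0.46 ± 0.30 (limma adjusted p = 0.791 and 0.833). Btg2, an antiproliferative gene, averaged 9.12 ± 0.34 in L12-ECKO and 9.56 ± 0.46 in L12YT-ECKO, against 8.85 ± 0.39 in WT (SD, n = 4 each). Gtse1, which restrains p53 in G2 phase, averaged 8.05 ± 0.56, 5.47 ± 3.90 and 4.30 ± 3.23 in L12-ECKO, L12YT-ECKO and WT, with 1 zero in L12YT-ECKO and 1 in WT. Its differences from WT were 3.75 ± 1.74 and 1.17 ± 1.74 (limma adjusted p = 0.399 and 0.937). They were 1.13 and -0.57 with the shifted-row batch in the fit. Within the 7 libraries without shifted rows they were 3.24 (L12-ECKO 1 alone) and -1.62. Gtse1 was at 7.77 to 8.83 in the 5 libraries with shifted rows and at most 7.54 in the other 7. Plk3, a second Polo-like kinase gene, averaged 8.38 ± 0.56, 7.26 ± 0.78 and 7.57 ± 0.98 in the same order of groups. Its 3-prime end overlaps an exon of Tctex1d4 on the opposite strand, and whether reads were counted by strand is not given, so its level is uncertain. Sesn1, a sestrin that restrains mTORC1, averaged 5.26 ± 3.53, 7.44 ± 0.93 and 5.77 ± 0.84, with a zero in L12-ECKO 3. Sesn2, its paralog, was above 0 in 1, 2 and 2 of the 4 libraries and was not tested. It averaged 0.47 ± 0.94, 1.02 ± 1.43 and 2.38 ± 3.11, highest in WT, where WT 3 reached 6.53.

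**Figure D3:**
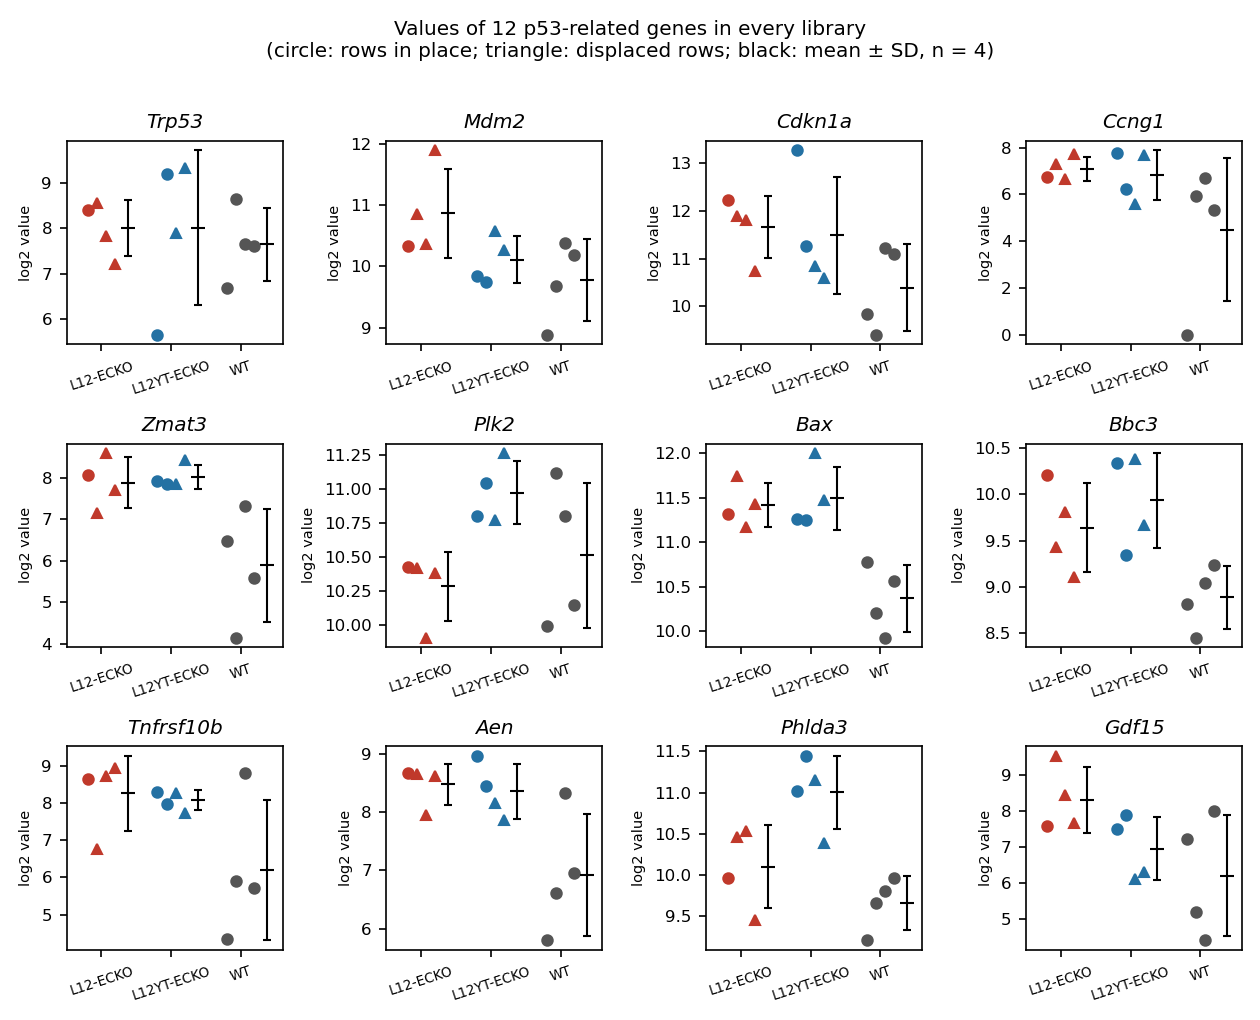
Log2 values of 12 members in each library, by group, with triangles for the 5 libraries with shifted rows, circles for the other 7, and the group mean ± SD (n = 4) in black. All Bax values of the knockout groups lie above those of WT, and Zmat3, Bbc3 and Phlda3 in L12YT-ECKO lie above WT. The vertical axes differ between genes and do not all start at 0.

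12 of the 33 members act in apoptosis, of which 11 were tested. All 11 tested lay above WT in L12-ECKO and 10 of the 11 in L12YT-ECKO, where Apaf1 differed by -0.01, and the median differences were 0.75 and 1.12. Bax was at 11.32, 11.75, 11.17 and 11.43 in L12-ECKO and at 11.26, 11.25, 12.004 and 11.47 in L12YT-ECKO, against 10.78, 10.21, 9.93 and 10.56 in WT. Every knockout library stood above every WT library. The Bax difference was 1.04 ± 0.28 in L12-ECKO, 1.12 ± 0.28 in L12YT-ECKO and 1.08 ± 0.24 over both (limma adjusted p = 0.116, 0.478 and 0.0926), with a 95% interval of 0.58 to 1.59 over both. Within the 7 libraries without shifted rows it was 0.95 in L12-ECKO (L12-ECKO 1 alone) and 0.88 in L12YT-ECKO. With sex in the fit it was 0.87 and 1.12.

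Aen, a nuclease gene that p53 induces during apoptosis, was at 8.68, 8.66, 7.95 and 8.63 in L12-ECKO and at 8.97, 8.44, 8.15 and 7.87 in L12YT-ECKO, against 5.80, 6.61, 8.32 and 6.96 in WT. 3 of the 4 WT libraries lay under all knockout libraries, and WT 3 lay among them. The Aen difference was 1.56 ± 0.55 in L12-ECKO and 1.44 ± 0.55 in L12YT-ECKO (limma adjusted p = 0.250 and 0.759). Within the 7 libraries without shifted rows the Aen difference was 1.75 (L12-ECKO 1 alone) and 1.78. Tnfrsf10b, which encodes a death receptor for TRAIL, averaged 8.27 ± 1.01 in L12-ECKO and 8.08 ± 0.27 in L12YT-ECKO, against 6.19 ± 1.89 in WT (SD, n = 4 each). Its WT libraries ran from 4.33 to 8.82, with WT 3 the highest. WT 3 lay above every L12YT-ECKO library, which reached 8.30, and above every L12-ECKO library except L12-ECKO 4, at 8.96. The Tnfrsf10b differences were 2.08 ± 0.79 and 1.89 ± 0.79 (adjusted p = 0.282 and 0.759). Within the 7 libraries without shifted rows they were 2.46 (L12-ECKO 1 alone) and 1.95. Without WT 3 the Tnfrsf10b difference in L12-ECKO was 2.96, with an adjusted p of 0.0629.

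Phlda3, a pleckstrin-domain gene whose product opposes Akt, was at 9.97, 10.46, 10.53 and 9.45 in L12-ECKO and at 11.02, 11.45, 11.16 and 10.39 in L12YT-ECKO, against 9.21, 9.66, 9.81 and 9.97 in WT. L12YT-ECKO did not overlap WT, while L12-ECKO lay between and overlapped both. The Phlda3 difference from WT was 1.34 ± 0.33 in L12YT-ECKO and 0.44 ± 0.33 in L12-ECKO (limma adjusted p = 0.478 and 0.598). Bbc3, which encodes the BH3-only protein PUMA, averaged 9.64 ± 0.48 in L12-ECKO and 9.94 ± 0.51 in L12YT-ECKO, against 8.89 ± 0.34 in WT (SD, n = 4 each), and L12YT-ECKO did not overlap WT. Its differences were 0.75 ± 0.37 and 1.05 ± 0.37 (adjusted p = 0.420 and 0.726). Pmaip1, which encodes the BH3-only protein NOXA, was at 7.02, 1.28, 0 and 4.33 in L12-ECKO and at 4.29, 3.61, 6.08 and 6.21 in L12YT-ECKO, against 0, 3.16, 6.59 and 0 in WT. It was above 0 in all 4 L12YT-ECKO libraries, in 3 L12-ECKO and in 2 WT libraries, with differences from WT of 0.72 ± 1.88 and 2.61 ± 1.88 (adjusted p = 0.908 and 0.843). The 1.28 was the lowest value above 0 in L12-ECKO 2, while WT libraries held none under 3.01.

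Eda2r, an X-linked receptor gene of the tumour necrosis factor receptor family, was at 1.63, 7.10, 7.80 and 7.86 in L12-ECKO and at 0, 6.01, 4.90 and 7.61 in L12YT-ECKO, against 3.59, 3.64, 0 and 0 in WT. 3 libraries of each knockout group stood above every WT library, and the first replicate of each stood low. Its differences of 4.29 ± 1.90 and 2.82 ± 1.90 (limma adjusted p = 0.373 and 0.836) were 0.98 and 0.62 with the shifted-row batch in the fit. Within the 7 libraries without shifted rows they were -0.18 (L12-ECKO 1 alone) and 1.20. The 3 high L12-ECKO libraries are the 3 that are shifted and female. Fas, which encodes the Fas death receptor, averaged 9.52 ± 0.55 in L12-ECKO and 9.12 ± 0.40 in L12YT-ECKO, against 8.76 ± 0.36 in WT. Trp53inp1, a stress gene that acts in p53-dependent death and autophagy, averaged 8.84 ± 0.60, 8.96 ± 0.54 and 8.27 ± 0.68 in the same order. Ei24, an endoplasmic reticulum gene induced by p53, averaged 10.24 ± 0.62, 10.18 ± 0.47 and 9.90 ± 0.12. Apaf1, the scaffold of the apoptosome, averaged 8.86 ± 1.79, 8.64 ± 1.43 and 8.65 ± 0.67. Perp, a desmosomal p53 target known from epithelia, did not pass the filter and was listed at 0 in all 4 WT libraries. It was above 0 in 2 L12-ECKO libraries (1.28 and 0.31) and 3 L12YT-ECKO libraries (4.18, 3.83 and 0.25). WT libraries held no value above 0 under 3.01, so the lower of these Perp values could not have appeared in WT.

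**Figure D4:**
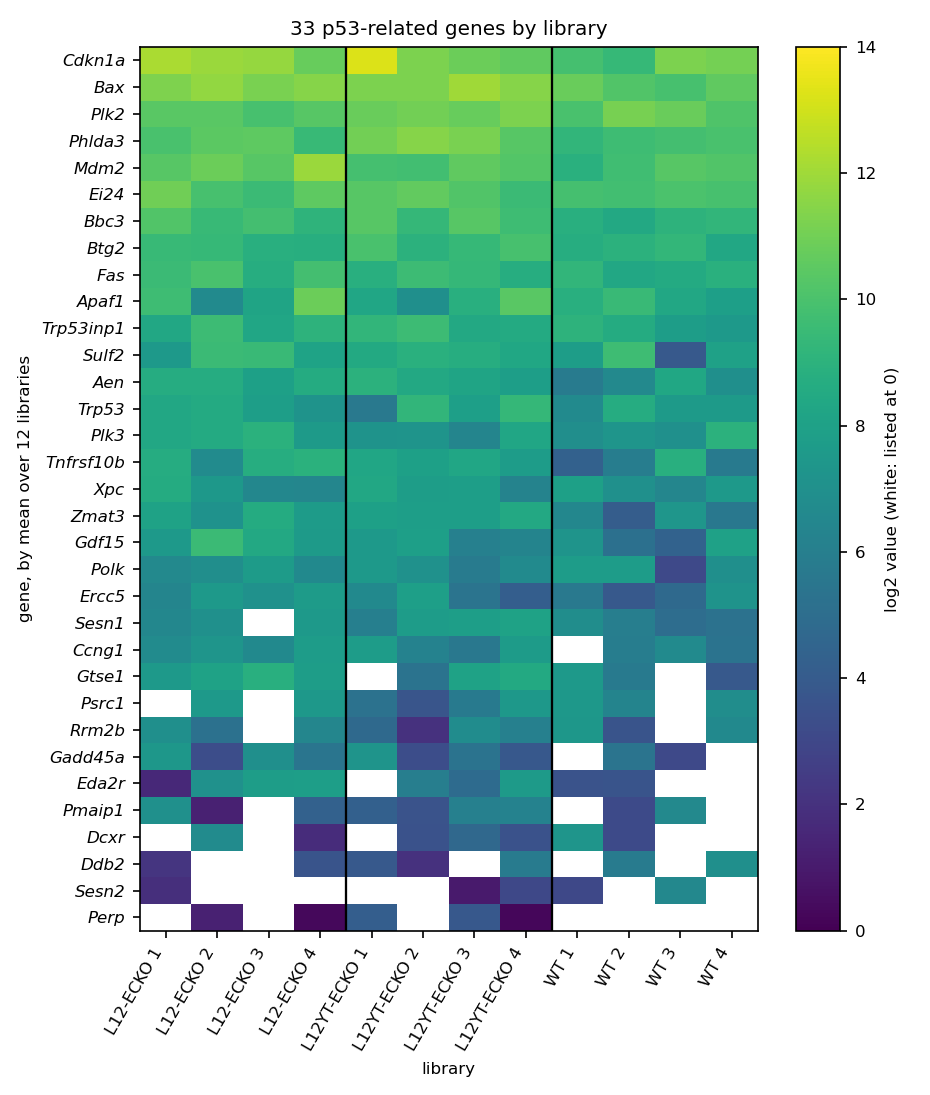
Log2 value of each of the 33 members in each library, as colour, with libraries in columns by group, members in rows by their mean over the 12 libraries, and white for a listed 0. The 21 members above 0 in all libraries fill the upper rows, and the 12 with zeros lie below them.

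The 5 members of DNA repair and nucleotide supply lay on both sides of WT, with median differences of 0.24 in L12-ECKO and 0.40 in L12YT-ECKO and none of the 5 under an unadjusted p of 0.05. Xpc, which recognizes damage in nucleotide excision repair, averaged 7.24 ± 1.03 in L12-ECKO and 7.58 ± 0.92 in L12YT-ECKO, against 7.24 ± 0.66 in WT (SD, n = 4 each). Ercc5, an endonuclease gene of the same pathway, averaged 7.17 ± 0.59, 6.02 ± 1.61 and 5.38 ± 1.40 in the same order, with differences from WT of 1.80 ± 1.07 and 0.65 ± 1.07 (SE). Polk, which encodes a translesion DNA polymerase, averaged 6.95 ± 0.52, 6.79 ± 0.72 and 6.39 ± 2.24. Rrm2b, the p53-induced subunit of ribonucleotide reductase, averaged 4.66 ± 3.20, 4.92 ± 2.12 and 4.42 ± 3.37. Ddb2, a sensor of ultraviolet damage, averaged 1.45 ± 1.78, 2.92 ± 2.49 and 3.19 ± 3.72, and its 3-prime end overlaps an exon of Acp2 on the opposite strand, so its level is uncertain too. Ddb2 differed from WT by -1.74 ± 1.95 and -0.27 ± 1.95. The last 2 genes had zeros in at least 1 library, which widens their spread.

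Of the 3 secreted and metabolic members, Gdf15, a stress cytokine gene, lay at 7.58, 9.54, 8.45 and 7.65 in L12-ECKO and at 7.50, 7.88, 6.10 and 6.31 in L12YT-ECKO, against 7.23, 5.18, 4.40 and 7.99 in WT. Only WT 4 reached the L12-ECKO range, and L12YT-ECKO lay within WT. The Gdf15 difference was 2.11 ± 0.84 in L12-ECKO and 0.75 ± 0.84 in L12YT-ECKO (limma adjusted p = 0.311 and 0.902). Within the 7 libraries without shifted rows the Gdf15 difference was 1.38 (L12-ECKO 1 alone) and 1.49. Sulf2, an extracellular heparan sulfatase gene, averaged 8.69 ± 0.98 in L12-ECKO and 8.61 ± 0.26 in L12YT-ECKO, against 7.34 ± 2.43 in WT, and its 3-prime end overlaps an exon of Ncoa3 on the opposite strand, so its level is uncertain. Dcxr, a carbonyl reductase gene, averaged 2.13 ± 3.20, 2.94 ± 2.04 and 2.62 ± 3.47, with zeros in every group.

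Removal of YAP and TAZ from cells that lack the kinases was addressed by setting L12YT-ECKO against L12-ECKO. The p53 genes went both ways, with differences from -2.58 to 2.19: 15 of 31 lay higher in L12YT-ECKO, against 55.0% of all genes, and the median difference was -0.06, against 0.09 over all genes. At an unadjusted p under 0.05, 2 members were higher (Plk2 and Phlda3, against 3.97% of all genes) and 0 lower, against 2.10%. Without L12YT-ECKO 2 that count was 0. Plk2 was the 1 member of 31 (3.23%) with L12YT-ECKO wholly above L12-ECKO, near the 2.75% of all genes. Its difference was 0.69 ± 0.30 with an interval of 0.05 to 1.32 (limma adjusted p = 0.788). The Plk2 difference was 0.50 within the 7 libraries without shifted rows, where L12-ECKO 1 alone stands for its group, and 0.78 within the 5 with them. The Phlda3 difference was 0.90 ± 0.33 with an interval of 0.20 to 1.60 (adjusted p = 0.661), and it was 1.27 and 0.63 within the 7 and the 5 libraries. For Bax the difference was 0.08 with an interval of -0.50 to 0.66, for Zmat3 0.14 with an interval of -1.34 to 1.62, and for Cdkn1a -0.18 with an interval of -1.44 to 1.09. These intervals do not show that the genotypes are alike in the 3 genes.

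Median differences from WT of 7 related gene lists ran from -0.08 to 0.55 in L12-ECKO and from -0.26 to 0.33 in L12YT-ECKO. Among 33 other p53 targets, 25 were tested, with median differences from WT of 0.23 in L12-ECKO and 0.27 in L12YT-ECKO. Of these 25, 1 was called in L12-ECKO, against 0.481% of all genes. This gene, Ddit4, rose by 1.87 ± 0.40 (SE, limma adjusted p = 0.0471), close to the threshold of 0.05. Whether it stayed called with batch or sex in the fit is not given here. Ddit4 averaged 11.68 in L12-ECKO and 10.87 in L12YT-ECKO, against 9.81 in WT. Ddit4 encodes an inhibitor of mTORC1 that hypoxia and glucocorticoids also induce. Tap1, a peptide transporter of antigen presentation, and Ier3, an immediate-early gene, lay 1.02 and 0.83 above WT over both knockouts (adjusted p = 0.248 and 0.305). Of 22 senescence genes, 14 were tested, with medians of 0.55 and 0.33, and 2 of the 14 rose in L12-ECKO, against 0.481% of all genes. The genes called in this comparison, 56 in all, numbered 15 with the shifted-row batch or with sex in the fit. 1 of the 2 was Igfbp3, which encodes an insulin-like growth factor binding protein, with a difference of 3.99 ± 0.76 (limma adjusted p = 0.0267). In L12YT-ECKO Igfbp3 lay 1.34 above WT (adjusted p = 0.823).

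None of the genes of the other 5 lists passed the test in any comparison. Of 23 regulators of p53, 20 were tested, with median differences from WT of -0.08 in L12-ECKO and 0.09 in L12YT-ECKO. The medians were -0.03 and -0.16 for 16 genes of DNA damage sensing, and 0.08 and -0.18 for 35 tested genes of DNA repair. They were 0.07 and -0.07 for 28 tested genes of the BCL2 family and the caspases. At an unadjusted p under 0.05 in L12-ECKO, 1 of these 28 was higher and 4 were lower, against 6.30% and 5.91% of all genes. Over both knockouts 1 was higher and 3 were lower, against 6.62% and 4.20%. The 3 with the smallest p there were Bid (-3.84 ± 1.59, SE), Casp9 (-1.03 ± 0.47) and Bcl2l11 (-0.73 ± 0.34), all below WT (limma adjusted p = 0.395, 0.442 and 0.449). For 27 tested cell cycle genes that p53 is known to repress the medians were 0.15 and -0.26. In the last list the proliferation gene Mki67 averaged 8.90 in L12-ECKO and 9.001 in L12YT-ECKO, against 10.10 in WT, a difference of -1.15 ± 0.33 over both (limma adjusted p = 0.228). In the same list E2f1, a transcription factor gene of the cell cycle, lay 0.76 ± 0.32 above WT (adjusted p = 0.400).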

How the data were processed

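Trizol extraction of total RNA and Lexogen QuantSeq 3-prime libraries are recorded per the labels' protocols. The submitters' processing notes name edgeR, Bowtie2 and the mm10 build, and each tool's role and version is not given in the sources used here. Each deposited table holds values of 24421 genes, and their log2 unit was worked out from the values. That the authors' log2 values are quantile normalized was read from the values themselves, as no 2 libraries differed by more than 0.168 at any of the upper 5000 ranks. Counts could not be recovered, so no interval for counting error is given.

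27 date-like names and 34 displaced rows were left out. limma 3.58.1 in R 4.3.3 (statmod 1.5.0) fitted group means to the 12 libraries jointly, with 9 residual degrees of freedom, a robust variance prior following the mean, and Benjamini-Hochberg adjustment over 11648 genes with at least 1 ppm (2 to the power of the value, as parts of the library's sum) in at least 4 libraries. The comparison of both knockouts with WT takes the mean of the 2 knockout means. The fit was tested on simulated data. A gene was called where its adjusted p was under 0.05. The block of same replicate numbers, batch, sex, filters, weights and single libraries left out were alternatives. Gene coordinates came from GENCODE M21. The members, lists and tests were chosen with earlier results of these data known. Per-library values are given in full for the regulators and common readouts (Trp53, Mdm2, Cdkn1a, Bax, Ccng1, Phlda3), for the 3 members with the smallest p in each comparison, and for members at 0 in at least 2 libraries of one group and in none of another; those of Gdf15 were added after its values were seen. From each list at most 3 genes are named, those called and then those with the smallest p over both knockouts. 1 gene that this rule names is left out here.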

Additional observations from a re-analysis of the deposited data

Results flagged for a closer look

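Single libraries lay far from the other 3 of their group in 9 of 93 groups of 4 tested by Dixon's criterion, and chance gives about 1 in 20. All values are on the authors' log2 scale. In L12-ECKO 3, Plk2 was at 9.91 with the nearest of the others at 10.38, Aen was at 7.95 with the nearest at 8.63, and Sesn1 was at 0 with the nearest at 6.49; this library had the fewest genes above 0, 9850. Tnfrsf10b was at 6.77 in L12-ECKO 2, with the nearest at 8.65. Eda2r was at 1.63 in L12-ECKO 1, with the nearest at 7.10. In L12YT-ECKO, Sesn1 was at 6.06 in library 1 with the nearest at 7.74, and Zmat3 was at 8.44 in library 4 with the nearest at 7.93. In WT 3, Psrc1 was at 0 with the nearest at 6.34, and Polk was at 3.08 with the nearest at 6.99.

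Plk2 was below the WT mean in all 4 L12-ECKO libraries and above it in all 4 L12YT-ECKO libraries. The difference between L12YT-ECKO and L12-ECKO was 0.69, and in the limma test it had an adjusted p of 0.788. L12YT-ECKO lay wholly above L12-ECKO in 2.75% of all genes tested.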

How the results depend on the processing

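No member was called in any comparison under any of the alternatives that gave a value, each by limma. The smallest adjusted p of a member over them was 0.0629 in L12-ECKO against WT and 0.0622 for both knockouts against WT (Tnfrsf10b without WT 3 in each), 0.18 in L12YT-ECKO against WT (Bax with a precision weight per library) and 0.452 for L12YT-ECKO against L12-ECKO (Phlda3 with the same weights). The Bax difference stayed between 0.79 and 1.18, between 0.88 and 1.26 and between 0.88 and 1.22 in the 3 comparisons with WT, and between -0.09 and 0.29 in the last. Of all member values, in the same order, 34 of 742, 36 of 742, 24 of 711 and 63 of 773 differences changed sign.

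The median member difference in L12-ECKO against WT was 0.948 in the 7 libraries without shifted rows, and 0.642 (without WT 3) to 1.087 (without L12-ECKO 3) with 1 library left out. In L12YT-ECKO against WT it was 0.80 with weights, 0.597 with values under 5 raised to 5, 0.827 with the batch as a covariate, 0.932 in the 7 libraries, and 0.524 (without WT 3) to 1.163 (without WT 4) with 1 library left out. For both knockouts it was 0.866 with weights and 0.599 to 0.931 with 1 library left out. For L12YT-ECKO against L12-ECKO it was -0.164 with values raised to 5, 0.029 in the 7 libraries, 0.042 in the 5 with shifted rows, and -0.088 to 0.047 with 1 library left out. Members higher at an unadjusted p under 0.05 in L12-ECKO numbered 5 with sex as a covariate, 2 in the 7 libraries (where 1 L12-ECKO library remains and is assumed to vary like the other groups), and 6 to 10 with 1 library left out. For L12YT-ECKO they numbered 4 (without WT 1) to 10 (without WT 3) with 1 library left out, and for both knockouts 6 in the 7 libraries and 7 to 10 with 1 left out.

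Genes called in L12-ECKO against WT numbered 7 with no mean trend, 24 with weights, 87 with values raised to 5, 15 with the batch, 15 with sex, 30 with only the groups compared, and 15 (without WT 2) to 80 (without WT 3) with 1 library left out. In L12YT-ECKO against WT there were 0 with no mean trend and 1 to 3 (without WT 1) with 1 left out. For both knockouts there were 3 with no mean trend, 24 with values raised to 5, 20 with log2 of the ppm value plus 1, 0 with the batch, 0 with sex, and 0 (without WT 2) to 25 (without WT 3) with 1 left out. For L12YT-ECKO against L12-ECKO there were 3 with no mean trend, 23 with weights, 5 with sex, 14 in the 7 libraries, 0 in the 5, 5 with only the groups compared, and 4 to 9 with 1 left out. The cause was not tested.

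Deviations of same-numbered libraries from their group means correlated at -0.047 to 0.058 over 12 pairs, so the numbers do not pair the libraries. With the replicate number as a block, 43, 1, 11 and 6 genes were called in the 4 comparisons, 0 members were, and 8, 6 and 11 members were higher than WT at an unadjusted p under 0.05. The 5 libraries with shifted rows include no WT library, so they give no comparison with WT. With only the groups compared, both knockouts against WT uses the same 12 libraries. The depth is unknown, and values near the lowest value above 0, which ran from 0.067 to 4.98 between libraries, are the least precise. That lowest value was 3.01 to 3.16 in WT, 0.067 to 4.98 in L12-ECKO and 0.13 to 2.77 in L12YT-ECKO. A low value above 0 in a knockout library can thus have no counterpart in WT.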
